A study of Mus musculus with 15 samples.

Results

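The Schlafen genes are a family of growth-regulatory and antiviral genes that lie side by side on mouse chromosome 11, and 7 of them were followed here over leukaemic and normal bone marrow. The members were taken by name, as the rows of the table of gene levels whose symbol was Slfn1, Slfn2, Slfn3, Slfn4, Slfn5, Slfn8 or Slfn9, which gave 7 of 38315 genes. Total RNA had been sequenced in bulk from 15 marrow samples. AML marrow (7 samples, acute myeloid leukaemia) came from mice of the genotype NUP98-NSD1/FLT3-ITD, which carry a fusion of the nucleoporin gene NUP98 with the histone methyltransferase gene NSD1 and, in the receptor tyrosine kinase FLT3, an internal tandem duplication. The controls were whole marrow (4 samples) and lineage-negative marrow (4 samples) of wild-type mice, the second being marrow depleted of cells that carry surface markers of mature blood lineages. The way in which the 2 alleles are expressed, the ages of the animals and the way in which lineage-positive cells were removed are not given in the sources used here. The labels number the samples of a group without saying that each came from its own mouse, so the p-values measure only the spread between these samples.

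Schlafen proteins share an N-terminal core that binds and, in several members, cuts tRNA or ribosomal RNA, and many of the genes are induced by type I interferon. The mouse family is divided by protein length. The short members Slfn1 and Slfn2 hold little beyond the core, the intermediate members Slfn3 and Slfn4 add a linker domain, and the long members Slfn5, Slfn8 and Slfn9 add a region related to superfamily I helicases and can enter the nucleus. The family was first described in thymocytes, where levels change as cells mature and where Slfn1 slows growth. Slfn2 keeps T cells and monocytes quiescent until they are activated and protects tRNAs from cleavage, Slfn4 is a gene of maturing myeloid cells and macrophages, and Slfn3 has been studied in T cells and in the differentiation of gut epithelium.

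The stretches of 250 bases before the transcription start are shown because the long members differ in them from the short and intermediate members, in 2 short motifs close to the start. They were read from RefSeq promoters of the assembly GRCm38.p6 and run 5′ to 3′ on the strand of the gene. All 7 members matched an entry. The first set holds the long members. Capitals mark the letters GAAA, any 2 bases and GAAA again, on either strand, the core of the interferon-stimulated response element (ISRE), which is bound by transcription factors that interferon activates.

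Slfn5 (chr11:82951852-82952101, plus strand): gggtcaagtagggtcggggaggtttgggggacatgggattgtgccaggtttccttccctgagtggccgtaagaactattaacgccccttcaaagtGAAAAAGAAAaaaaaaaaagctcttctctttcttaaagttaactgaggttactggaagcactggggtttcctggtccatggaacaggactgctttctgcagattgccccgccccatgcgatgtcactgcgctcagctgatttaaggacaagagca
Slfn8 (chr11:83020811-83021060, minus strand): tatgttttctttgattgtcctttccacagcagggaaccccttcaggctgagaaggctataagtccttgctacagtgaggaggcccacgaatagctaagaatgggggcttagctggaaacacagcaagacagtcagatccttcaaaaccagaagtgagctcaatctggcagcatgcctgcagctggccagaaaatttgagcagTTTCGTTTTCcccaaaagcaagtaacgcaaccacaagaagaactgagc
Slfn9 (chr11:82991831-82992080, minus strand): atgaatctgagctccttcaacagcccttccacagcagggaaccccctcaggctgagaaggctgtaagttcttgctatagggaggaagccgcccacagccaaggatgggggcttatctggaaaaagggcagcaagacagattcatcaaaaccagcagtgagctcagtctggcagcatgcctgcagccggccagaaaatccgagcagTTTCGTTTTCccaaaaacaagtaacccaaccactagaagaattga

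The ISRE letters began 155 bases before the start in Slfn5, 48 bases before it in Slfn8 and 45 bases before it in Slfn9. RefSeq gives Slfn8 a second start further downstream, from which the same letters lie 136 bases away. In Slfn8 and Slfn9 they lay on the opposite strand and read TTTCGTTTTC in both. Of 32851 RefSeq promoters of 300 bases (250 before and 50 after the start), 3.44% held these letters. Slfn8 and Slfn9 are also close copies in this window, with 248 of 300 bases identical in an alignment.

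The second set holds the short and intermediate members, none of which had the ISRE letters in the window. Capitals here mark CAGGAAGT on either strand, a sequence of the kind bound by ETS transcription factors, which was picked out after these promoters had been read.

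Slfn1 (chr11:83116570-83116819, plus strand): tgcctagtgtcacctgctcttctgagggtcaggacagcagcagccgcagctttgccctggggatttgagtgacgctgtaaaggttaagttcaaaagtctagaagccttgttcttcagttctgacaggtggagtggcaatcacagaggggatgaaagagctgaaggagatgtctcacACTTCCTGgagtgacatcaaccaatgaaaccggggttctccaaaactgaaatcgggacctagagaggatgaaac
Slfn2 (chr11:83064862-83065111, plus strand): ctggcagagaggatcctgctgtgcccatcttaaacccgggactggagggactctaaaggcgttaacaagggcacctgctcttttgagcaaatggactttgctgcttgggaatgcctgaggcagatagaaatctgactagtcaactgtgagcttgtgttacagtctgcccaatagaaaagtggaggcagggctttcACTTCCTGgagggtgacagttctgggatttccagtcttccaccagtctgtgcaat
Slfn4 (chr11:83174936-83175185, plus strand): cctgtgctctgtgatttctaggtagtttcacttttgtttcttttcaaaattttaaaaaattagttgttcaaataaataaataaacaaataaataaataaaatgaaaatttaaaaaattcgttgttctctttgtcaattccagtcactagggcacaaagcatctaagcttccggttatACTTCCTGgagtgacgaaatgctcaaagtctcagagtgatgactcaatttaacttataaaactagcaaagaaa
Slfn3 (chr11:83191080-83191329, plus strand): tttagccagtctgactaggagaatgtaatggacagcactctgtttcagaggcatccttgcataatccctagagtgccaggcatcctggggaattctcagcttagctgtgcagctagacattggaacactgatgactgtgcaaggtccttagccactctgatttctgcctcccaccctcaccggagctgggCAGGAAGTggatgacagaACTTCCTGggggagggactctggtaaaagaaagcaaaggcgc

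The ETS letters began 74, 55 and 73 bases before the start in Slfn1, Slfn2 and Slfn4, and 60 and 42 bases before it in Slfn3. Among all RefSeq promoters of that length, 3.33% held them. Slfn1, Slfn2 and Slfn4 shared the longer run ACTTCCTGGAG, which occurred in 24 of the 32851 promoters, and in Slfn1 and Slfn4 the run extended to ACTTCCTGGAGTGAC, found in 2 promoters in all. Each run was picked as the longest one that these promoters share, so its count includes them and is no test of their likeness. The letters of a gamma-activated site (TTCNNNGAA, in 8.30% of promoters) and of a PU.1 site (GAGGAAGT, in 3.20%) were searched on both strands and matched in none of the 7 members. A match of letters is a description of the sequence and does not show that a factor was bound.

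Gene levels are given as normalized counts, which are estimated reads divided by a scaling factor for each library. The estimated depth was 20.3 to 35.1 M reads (M, mega) in AML marrow, 11.4 to 17.2 M reads in whole marrow and 20.3 to 28.1 M reads in lineage-negative marrow, and 3 reads, taken as the floor of detection, were worth 1.96 to 4.09 normalized counts. A difference is the difference between groups in mean log2(normalized count + 1), fitted with limma over 18941 genes, and a gene was called when its Benjamini-Hochberg adjusted p was under 0.05 and the log2 difference was at least 1 in either direction. Most genes had lower values in whole marrow than in the other groups: the median log2 difference of all genes was 0.67 between AML and whole marrow, 0.02 between AML and lineage-negative marrow, and 0.59 between lineage-negative and whole marrow. The parts of library scaling and of cell makeup in this shift were not tested. After rescaling of the libraries with the trimmed mean of M values (TMM) the 3 medians were −0.01, 0.03 and −0.09. With TMM the share of calls that were higher in AML than in whole marrow went from 70.8% to 22.8%, and for lineage-negative against whole marrow from 65.8% to 30.7%. Differences of the members against whole marrow are therefore given under both scalings. Whole marrow also had fewer genes at 0 (7.12% to 15.7%, where AML had 23.6% to 41.4% and lineage-negative marrow 35.7% to 41.0%), and its 1750 olfactory and vomeronasal receptor genes had a mean of 6.31 to 11.9 normalized counts, against 0.404 to 3.34 and 0.325 to 0.462. AML replicates 5 and 6 stood apart in AML, with 29.1% and 23.6% of genes at 0. Subtracting the receptor level as a background per length changed no member's call, and leaving out these 2 AML libraries ended 1, that of Slfn9 against whole marrow (0.92). The tissue labels were set against marker genes: a list of 18 neutrophil maturation genes summed to 3.04 to 21.7 k normalized counts (k, kilo) in lineage-negative marrow, against 484 to 1270 k in whole marrow, whereas 10 stem and progenitor genes summed to 26.98 to 35.7 k against 3.65 to 6.36 k. In bulk marrow, fewer cells of a type and less RNA per cell cannot be told apart.

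The long members Slfn5 and Slfn8 rose in AML marrow against both kinds of normal marrow, and were the members called against both under either scaling. Against whole marrow 4 of the 7 members rose in AML and none fell, namely Slfn2, Slfn5, Slfn8 and Slfn9, where 27.3% of all genes tested were called higher and 38.5% in either direction. With TMM scaling 2 of the 7 were called, both higher, Slfn5 and Slfn8, where 4.73% of all genes were called higher and 16.04% lower. Against lineage-negative marrow 5 of the 7 rose in AML and none fell (17.7% of all genes were called higher and 30.3% in either direction), namely Slfn1, Slfn2, Slfn4, Slfn5 and Slfn8. The median log2 difference of the members was 1.08 against whole marrow and 4.48 against lineage-negative marrow, beside 0.67 and 0.02 for all genes. With TMM the medians of the members were 0.38 and 4.49, beside −0.01 and 0.03 for all genes.

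**Figure D1:**
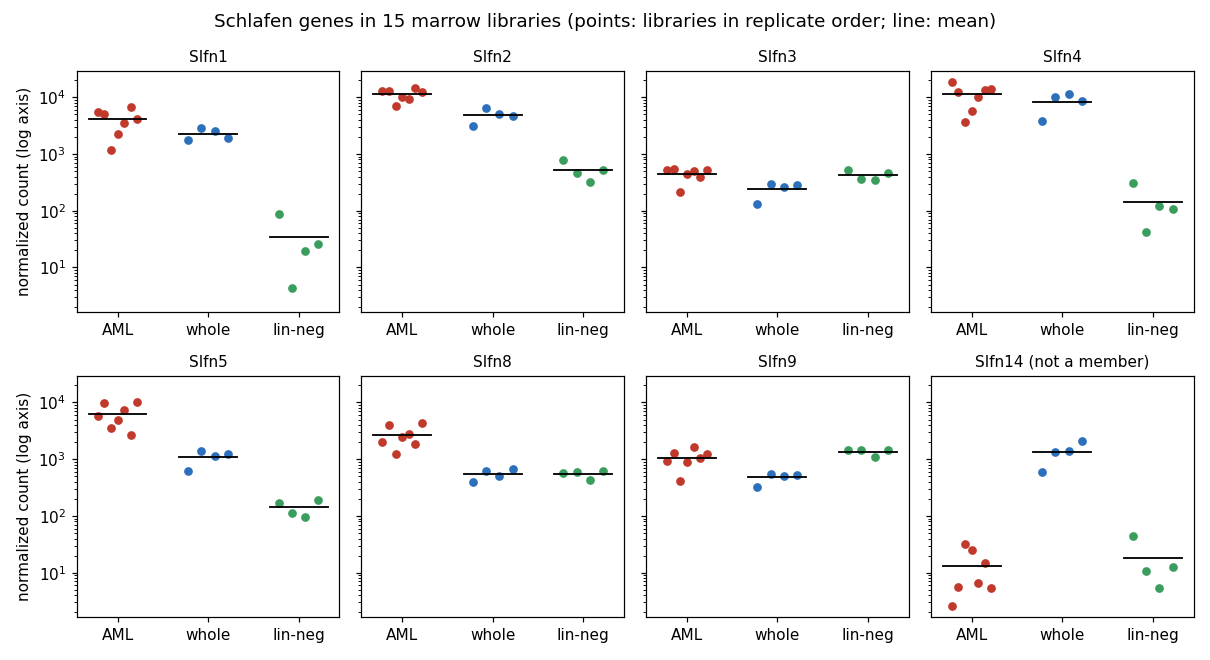
Normalized counts (log axis) of the 7 members and of Slfn14, another Schlafen gene, in 15 libraries of AML, whole and lineage-negative (lin-neg) marrow; points are libraries in replicate order and lines are group means. Slfn5 and Slfn8 are higher in the 7 AML libraries than in either control group, Slfn1 and Slfn4 are lowest in lineage-negative marrow, and Slfn14 is high in whole marrow alone among the 3 groups.

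Slfn5 is a long, nuclear member that acts on transcription of interferon-stimulated genes and on cell motility. In the 7 AML libraries it ranged from 2626 normalized counts in replicate 6 through a median of 5672 to 10001 in replicate 7. The 4 whole marrow libraries, replicates 1 to 4, held 623, 1380.1, 1158 and 1233 normalized counts. In lineage-negative marrow the values were 171, 111, 96.9 and 194. The 3 groups did not overlap, and the lowest AML library was above the highest whole marrow library. Means were 6310 ± 2909 (SD, n = 7), 1098 ± 330.4 (SD, n = 4) and 143 ± 46.6 (SD, n = 4).

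The log2 difference of Slfn5 was 2.44 (SE 0.33) between AML and whole marrow, a ratio of geometric means of 5.41, with a limma adjusted p of 8.28e-06. With TMM scaling it was 1.74 (limma adjusted p = 0.000208), and Slfn5 stayed called in every alternative that was run, between 1.67 with quantile scaling and 2.62 without AML replicate 6. Against lineage-negative marrow the difference was 5.36 (SE 0.33, limma adjusted p = 2.20e-10). Within normal marrow, lineage-negative samples were lower than whole marrow by a log2 difference of −2.93 (SE 0.37, limma adjusted p = 2.22e-06), and by −3.63 with TMM.

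Slfn8, a second long member expressed in immune cells, had overlapping levels in the 2 kinds of normal marrow and a higher level in AML. The AML libraries held 1252 (replicate 3) to 4386 (replicate 7) normalized counts with a median of 2450.1. Whole marrow replicates 1 to 4 held 403, 626, 514 and 679. Lineage-negative replicates held 573, 589, 435 and 626. The ranges of the 2 normal groups overlapped, and each AML library lay above all 8 of them.

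The mean of Slfn8 was 2675 ± 1146 (SD, n = 7) in AML. It was 555 ± 123 (SD, n = 4) in whole and 556 ± 83.2 (SD, n = 4) in lineage-negative marrow. AML exceeded whole marrow by a log2 difference of 2.18 (SE 0.27, limma adjusted p = 4.01e-06) and by 1.48 with TMM (limma adjusted p = 0.000196), and the call held in every alternative run, the smallest value being 1.40 with quantile scaling. AML exceeded lineage-negative marrow by 2.16 (SE 0.27, limma adjusted p = 2.35e-06). Between the normal groups the log2 difference was 0.02 (SE 0.31, limma adjusted p = 0.968) in the deposited scaling and turned to −0.68 with TMM (limma adjusted p = 0.0501).

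Slfn9, the third long member, whose promoter is a close copy of that of Slfn8, had its highest mean in lineage-negative marrow. In AML it ranged from 411 (replicate 3) to 1628 (replicate 5) with a median of 1031. Whole marrow replicates 1 to 4 held 326, 539.6, 513 and 538. Lineage-negative marrow held 1461, 1435, 1080.0 and 1440.1. Every lineage-negative library was above every whole marrow library, and 6 of the 7 AML libraries were above whole marrow while replicate 3 lay inside its range.

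Slfn9 was higher in lineage-negative than in whole marrow by a log2 difference of 1.52 (SE 0.31, limma adjusted p = 0.00028). With TMM the difference was 0.81 (limma adjusted p = 0.0181), under the size needed for a call. It was the 1 member of 7 called higher in lineage-negative than in whole marrow, where 33.1% of all genes were, while 4 of 7 were called lower, Slfn1, Slfn2, Slfn4 and Slfn5, where 17.2% of all genes were, with 50.3% called in either direction. Slfn9 rose in AML against whole marrow by 1.08 (SE 0.27, limma adjusted p = 0.00214), just past the threshold. That call was lost with TMM (0.38), without AML replicate 5 (0.96) and without whole marrow replicate 1 (0.90). Against lineage-negative marrow the AML value was −0.44 (SE 0.27, limma adjusted p = 0.207).

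The ratio of Slfn8 to Slfn9, which no scaling of a library can move, separated all 3 groups. It was 1.73 to 3.51 in AML, 1.00 to 1.26 in whole marrow and 0.392 to 0.434 in lineage-negative marrow. The ratio was looked at after the levels had been seen and was not tested. The transcripts of both genes share sequence with other genes, mostly with the pseudogene Slfn10-ps. Of the 50-base words, 14.6% of those of Slfn8 and 11.5% of those of Slfn9 occur in another gene, and 3.39% and 3.71% of the 100-base words. How the reads of such words were assigned, and the read length, are not given in the sources used here.

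**Figure D2:**
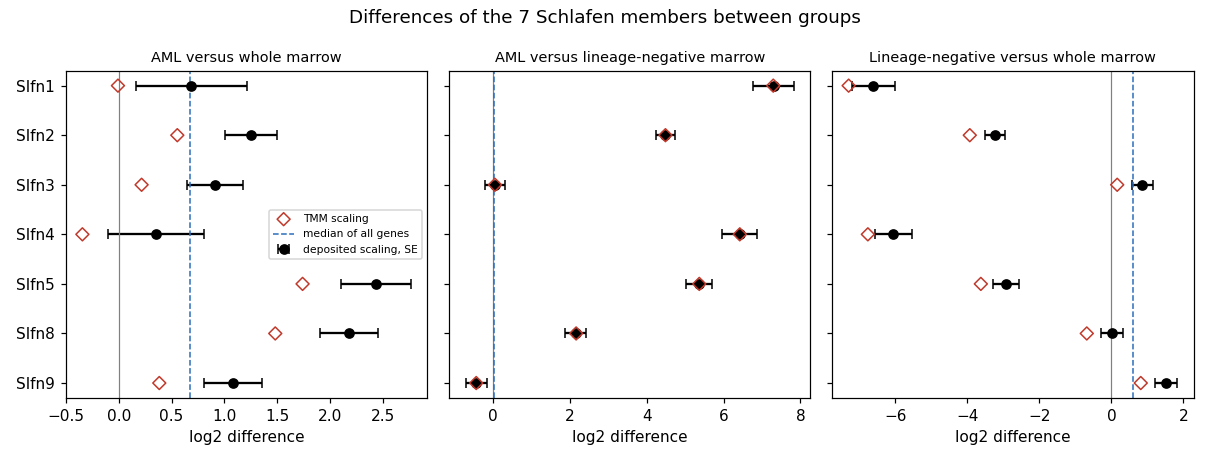
Log2 differences of the 7 members in the 3 comparisons: black points with bars are limma estimates with SE in the deposited scaling, open diamonds are the estimates with TMM scaling and the dashed line is the median of all genes tested. Against whole marrow TMM moves each member to a lower value, with Slfn1 and Slfn4 passing below 0, while Slfn5 at 1.74 and Slfn8 at 1.48 stay beyond a log2 difference of 1.

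Slfn2, the short member that holds T cells and monocytes in quiescence, was the most abundant Schlafen transcript per length in every group. It ranged from 6879 (replicate 3) through a median of 12619 to 14491.5 (replicate 6) in AML. Whole marrow replicates 1 to 4 held 3114, 6499, 4969 and 4592. Lineage-negative marrow held 775, 460.0, 316 and 518. None of the 3 groups overlapped another, although the lowest AML library was close to the highest whole marrow library.

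Slfn2 rose in AML against whole marrow by a log2 difference of 1.25 (SE 0.25, limma adjusted p = 0.000301), but with TMM by 0.55 (limma adjusted p = 0.0561), which is no call. AML exceeded lineage-negative marrow by 4.48 (SE 0.25, limma adjusted p = 7.66e-11), and lineage-negative marrow was below whole marrow by a log2 difference of −3.23 (SE 0.28, limma adjusted p = 5.05e-08). These last 2 differences kept their direction and their call with TMM, at 4.49 and −3.94.

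Slfn1, the other short member and an inhibitor of thymocyte growth, had its lowest values in lineage-negative marrow. AML libraries ran from 1195 (replicate 3) through 4108 to 6725 (replicate 6). Whole marrow replicates held 1771, 2882, 2497 and 1898. Lineage-negative replicates held 89.0, 4.41, 19.4 and 25.5, of which replicate 2 was near its floor of 2.64. AML and whole marrow overlapped: 5 AML libraries lay above whole marrow, 1 inside its range and 1 below it.

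The log2 difference of Slfn1 between AML and whole marrow was 0.69 (SE 0.53, limma adjusted p = 0.261) and became −0.01 with TMM. AML exceeded lineage-negative marrow by 7.30 (SE 0.53, limma adjusted p = 1.51e-09), and lineage-negative marrow was below whole marrow by −6.62 (SE 0.60, limma adjusted p = 7.15e-08; −7.30 with TMM). The lineage-negative mean of 34.6 ± 37.3 (SD, n = 4) rested on replicate 1, without which it was 16.4, and the difference from whole marrow was then −7.28.

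Slfn4, an intermediate member of maturing myeloid cells, followed the same pattern at a higher level. AML libraries ran from 3630 (replicate 3) through 12490.4 to 18759 (replicate 1). Whole marrow replicates held 3865, 10016, 11195 and 8471. Lineage-negative replicates held 307, 42.3, 123 and 108. AML overlapped whole marrow, with 4 libraries above it and 1 below, and both lay far above lineage-negative marrow.

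For Slfn4 the log2 difference was 0.35 (SE 0.46, limma adjusted p = 0.512) between AML and whole marrow and −0.35 with TMM. It was 6.42 (SE 0.46, limma adjusted p = 1.17e-09) between AML and lineage-negative marrow and −6.07 (SE 0.51, limma adjusted p = 4.04e-08) between lineage-negative and whole marrow, or −6.77 with TMM. The lineage-negative mean of 145 ± 113 (SD, n = 4) became 91.3 without replicate 1. Replicate 1 was the highest and replicate 2 the lowest lineage-negative library for both Slfn1 and Slfn4. The summed neutrophil list had the same ends, 21.7 k in replicate 1 and 3.04 k in replicate 2. The part of remaining neutrophil RNA in these values was not tested.

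Slfn3, the second intermediate member, had the smallest spread of group means among the 7 members. AML libraries ran from 215 (replicate 3) through 509 to 544 (replicate 2). Whole marrow replicates held 131, 291, 263 and 279.6. Lineage-negative replicates held 521, 361, 351 and 462. AML and lineage-negative marrow covered each other, and both were mostly above whole marrow, from which all 4 lineage-negative and 6 of 7 AML libraries were apart.

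Slfn3 was not called in any of the 3 comparisons. Its log2 difference was 0.91 (SE 0.26, limma adjusted p = 0.00552) between AML and whole marrow, just under the size needed, and 0.22 with TMM. It passed that size without AML replicate 3 (1.08), without whole marrow replicate 2 (1.02) and without whole marrow replicate 4 (1.00). Between lineage-negative and whole marrow it was 0.86 (SE 0.30, limma adjusted p = 0.0163) and 0.16 with TMM, and between AML and lineage-negative marrow 0.05 (SE 0.26, limma adjusted p = 0.892).

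As levels per kilobase of exon, the order of the members was the same in AML and in whole marrow, and different in lineage-negative marrow. In AML the mean level was 6801 normalized counts per kb for Slfn2, 2825 for Slfn4, 2183 for Slfn1, 997 for Slfn5, 654 for Slfn8, 179 for Slfn9 and 132 for Slfn3. Whole marrow ran in that order from 2881 for Slfn2 to 70.6 for Slfn3. Within AML libraries, Slfn4 was above Slfn1 in 6 of 7 and Slfn5 above Slfn8 in 6 of 7, and each other neighbour in the order held in 7 of 7.

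In lineage-negative marrow Slfn2 again led, at 311 normalized counts per kb. It was followed by Slfn9 at 227, Slfn8 at 136, Slfn3 at 124, Slfn4 at 36.6, Slfn5 at 22.6 and Slfn1 at 18.5. Slfn8 and Slfn3 were not separate beyond their spread (Slfn8 above in 3 of 4 libraries), nor were Slfn4 and Slfn5 (2 of 4) or Slfn5 and Slfn1 (3 of 4).

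As shares of the summed counts of the 7 members, Slfn9 made up 37.5% to 47.8% in lineage-negative marrow, 2.02% to 4.60% in AML and 2.43% to 3.19% in whole marrow. These shares do not depend on scaling but grow with exonic length, which was 5965 bases for Slfn9 and 1664 bases for Slfn2. Slfn4 was the largest share in whole marrow, at 37.8% to 53.0%, and held 21.1% to 40.6% in AML. Slfn5 held 6.49% to 21.4% in AML and 5.48% to 6.97% in whole marrow. The AML library with the low Slfn5 share was replicate 6, which lay inside the range of whole marrow, and the other AML libraries lay above it. Slfn8 held 4.37% to 9.32% in AML and 2.43% to 3.94% in whole marrow, which did not overlap, and 14.7% to 19.6% in lineage-negative marrow. The 7 genes together took 0.0654% to 0.200% of a library in AML, 0.0990% to 0.117% in whole marrow and 0.0135% to 0.0185% in lineage-negative marrow.

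**Figure D3:**
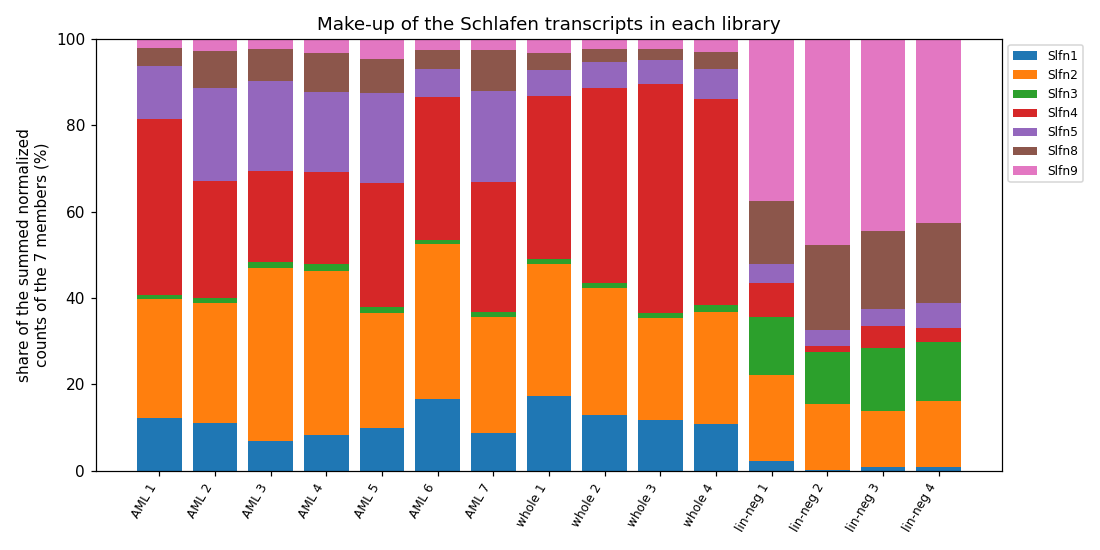
Share of the summed normalized counts of the 7 members (percent, stacked bars, counts not divided by gene length) held by each gene in each of the 15 libraries. Slfn9 takes 37.5% to 47.8% of the bar in lineage-negative marrow and under 5% elsewhere, and against whole marrow the Slfn8 band is wider in all 7 AML libraries and the Slfn5 band in 6 of 7.

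Single libraries stood at the ends of these ranges. AML replicate 3 was the lowest AML library for 6 of the 7 members, all but Slfn5. Whole marrow replicate 1 was the lowest of its group for all 7, and its total was 10.2 M normalized counts against 17.9 to 19.3 M in the other whole marrow libraries. Among the other members' extremes, AML replicate 6 was highest for Slfn1 and Slfn2 and lowest for Slfn5.

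The interferon pathway was set beside the members through lists of 15 receptor and signalling genes and 28 interferon-stimulated genes. Of the interferon-stimulated genes, 20 rose and 2 fell in AML against whole marrow (median log2 difference 1.61). Of all genes, 27.3% were called higher and 11.3% lower, with a median of 0.67. With TMM 10 of the list rose and 3 fell (median 0.92), beside 4.73% of all genes called higher and 16.04% lower. Zbp1, a sensor of Z-form nucleic acid, rose by a log2 difference of 2.53 and the antiviral GTPase gene Mx2 by 2.36, while the exonuclease gene Isg20 and the antiviral enzyme gene Rsad2 (viperin) fell, at −3.08 and −2.53. With TMM these values were 1.83 for Zbp1, 1.68 for Mx2, −3.78 for Isg20 and −3.22 for Rsad2. Against lineage-negative marrow 22 of 28 rose in AML and none fell (median 2.32), among them Ifit3b (6.64), Ifit3 (5.81) and Ifi204 (5.42). Of the 15 signalling genes, 14 rose against whole marrow (3 with TMM) and 8 against lineage-negative marrow. Irf8, a factor of monocyte development, rose by 2.33 and Stat2, a subunit of the complex that binds the ISRE, by 2.02 against whole marrow (1.64 and 1.33 with TMM). In lineage-negative against whole marrow, 13 of the 28 interferon-stimulated genes fell and none rose.

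Over the 7 AML libraries the members differed in how they moved with the mean log2 of the interferon-stimulated list. These relations, 14 in all with those to the neutrophil list, were computed after the levels had been seen, with exact permutation tests over pairings, two-sided. Slfn8 had Pearson's r = 0.962 (exact permutation p = 0.000794, Benjamini-Hochberg adjusted p = 0.0111) and Spearman's rho = 0.964 (exact permutation p = 0.00278, adjusted p = 0.0389). Without AML replicates 3 and 2, the libraries farthest from the median of the list, r was 0.991. The adjusted p of Slfn8 rose to 0.0972 without replicate 2 and to 0.0778 without replicate 3, with r of 0.952 and 0.957.

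Slfn3 had r = 0.906 (exact permutation p = 0.00278, adjusted p = 0.0194) and rho = 0.893 (exact permutation p = 0.0123, adjusted p = 0.0574), and its r was 0.642 without the same libraries. The adjusted p of Slfn3 was 0.107 without replicate 2, 0.28 without replicate 3 and 0.0778 without replicate 6 (exact permutation tests, r of 0.927, 0.714 and 0.904). Slfn5 had r = 0.796 (exact permutation p = 0.028, adjusted p = 0.0979) and rho = 0.893 (exact permutation p = 0.0123, adjusted p = 0.0574), with r = 0.880 without them and r = 0.951 (exact permutation adjusted p = 0.0389) without replicate 6 alone. Slfn9 had r = 0.883 (exact permutation p = 0.0173, adjusted p = 0.0806), rho = 0.75 (exact permutation p = 0.0663, adjusted p = 0.186) and 0.610 without them. For Slfn1, Slfn2 and Slfn4 r was 0.634, 0.653 and 0.654 (each with an exact permutation adjusted p of 0.229) and −0.31, −0.27 and 0.0267 without the same 2 libraries. These relations rested on replicate 3: without it alone r was −0.047, −0.024 and 0.073, and without replicate 2 alone 0.606, 0.631 and 0.677. No member's relation with the neutrophil list passed an adjusted p of 0.05 in these exact permutation tests, the closest being Slfn4, with r = 0.631 and rho = 0.786 (exact permutation adjusted p = 0.229 and 0.168). The members and the lists come from the same libraries, and the part of library scaling in these relations was not tested beyond a rescaling within AML, which changed no call. The part of cell makeup in them was not tested. Replicate 3 had the highest sums among AML libraries for lists of 10 erythroid, 10 B cell and 8 eosinophil genes.

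**Figure D4:**
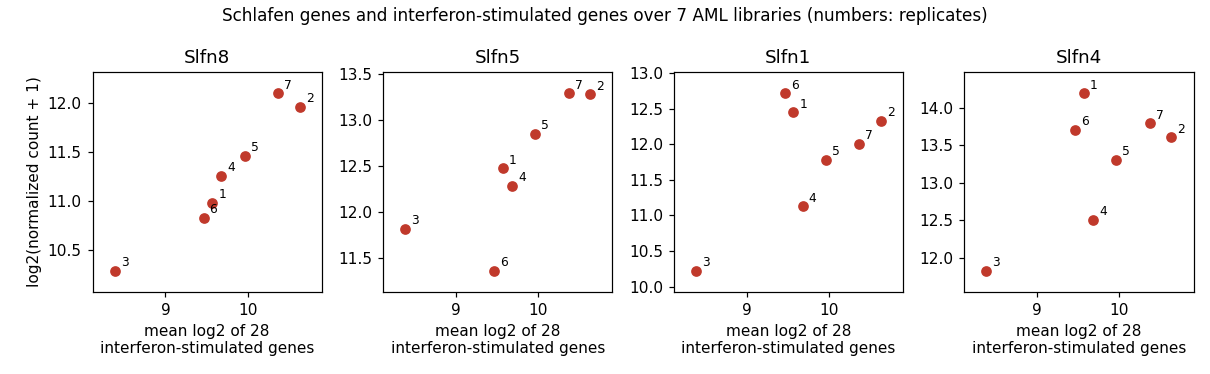
Level of Slfn8, Slfn5, Slfn1 and Slfn4 (log2(normalized count + 1)) against the mean log2 level of 28 interferon-stimulated genes in the 7 AML libraries, numbered by replicate. Slfn8 rises with the list (r = 0.962), and Slfn5 does so apart from replicate 6. For Slfn1 and Slfn4 replicate 3 is the lowest library, followed by replicate 4.

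Genes of other cell types that may express Schlafen genes also differed between the groups. Of all genes, 27.3% were called higher and 11.3% lower in AML against whole marrow, and 4.73% and 16.04% with TMM. Against lineage-negative marrow the shares were 17.7% and 12.5%. Of 18 neutrophil maturation genes, 1 fell and none rose in AML against whole marrow (median −0.19). With TMM 3 fell and none rose (median −0.88). Against lineage-negative marrow all 18 rose (median 6.96). Of 15 monocyte and macrophage genes, 9 rose and 1 fell against whole marrow (3 and 1 with TMM), and 14 rose against lineage-negative marrow. Their summed level was 206 to 429 k normalized counts in AML, 77.3 to 193 k in whole marrow and 14.2 to 24.1 k in lineage-negative marrow. Of 14 T and NK cell genes, 7 rose against whole marrow and with TMM none rose and 3 fell, and their sum was 1.82 to 6.90 k in AML, 1.17 to 1.92 k in whole marrow and 0.504 to 0.819 k in lineage-negative marrow. In AML against whole marrow 9 of 10 B cell genes fell (median −2.52), as did all 8 eosinophil genes (median −5.88), all 10 erythroid genes (median −7.86) and 7 of 8 megakaryocyte genes (median −2.10), with the same counts under TMM. The part of cell makeup in the differences of the members was not tested.

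Lists of genes with roles near those of the family were counted in the same way. Of 18 genes of quiescence and growth arrest, 4 rose and none fell in AML against whole marrow (median 0.57), with 2 in each direction under TMM. Neither the 4 of 18, beside 27.3% of all genes, nor the median, beside 0.67 for all genes, lay above the background. Against lineage-negative marrow 9 rose and none fell. Klf4, a factor of monocyte differentiation and quiescence, rose by 2.31 and the cell-cycle inhibitor gene Cdkn1a by 1.70 against whole marrow (1.61 and 1.01 with TMM). Of 8 genes of tRNA and ribosome control, 4 rose against whole marrow and none with TMM, among them Elac2, which processes tRNA ends, at 1.08. Against lineage-negative marrow 1 of these 8 rose and 2 fell.

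For each member the protein-coding genes whose log2 profile over the 15 libraries was nearest were found, by the root mean square (RMS) difference after each gene's mean was taken off. Slfn8 was nearest to Parp14 (RMS 0.232), Ifi209 (0.233) and Stat2 (0.299), against a median RMS of 1.19 over all such genes. Slfn5 was nearest to Ifi207 (0.329), Abca6 (0.402) and Gpr35 (0.485), against a median of 2.35. Slfn1 and Slfn4 had the same nearest gene, Gm5150 (0.438 and 0.338), followed by Klra2 (0.549) and Cd177 (0.560) for Slfn1 and by Mmp25 (0.483) and Cd300lf (0.492) for Slfn4. Slfn2 was near to Lgals3 (0.245) and Xdh (0.334). Slfn3 was nearest to Iqgap3 (0.173), Lrp8 (0.175) and Foxm1 (0.196), and Slfn9 to Tbc1d31 (0.233), Atp10a (0.269) and Dhdh (0.289). Among the members themselves the smallest RMS values were those of Slfn3 with Slfn9 (0.340) and Slfn1 with Slfn4 (0.522). The median RMS over all such genes was 0.623 for Slfn3 and 0.701 for Slfn9. It was 3.403 for Slfn1, 3.035 for Slfn4 and 2.038 for Slfn2, so RMS values of different members are not on a common scale.

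The cluster holds further Schlafen genes besides the members. In the coordinates of the table, whose genome build is not stated in it, the 10 Schlafen genes of chromosome 11 spanned 344 kb. The members ran from Slfn5 (82842175 to 82855666, plus strand) through Slfn9 (82869216 to 82882656, minus), Slfn8 (82892984 to 82911636, minus), Slfn2 (82955938 to 82961504, plus), Slfn1 (83007675 to 83013496, plus) and Slfn4 (83066012 to 83081042, plus) to Slfn3 (83082156 to 83105980, plus). Slfn1 and Slfn4 were thus neighbours on the plus strand, and Slfn9 and Slfn8 neighbours on the minus strand.

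Slfn14, the last gene of the cluster, encodes a ribosome-bound endoribonuclease of reticulocytes and platelets. It held 604, 1319, 1409.8 and 2124 normalized counts in whole marrow replicates 1 to 4. AML libraries held 2.54 to 31.9 with a median of 6.61, the lowest under its floor of 3.82, and lineage-negative replicates held 43.6, 10.6, 5.29 and 12.4. Slfn14 fell in AML against whole marrow by a log2 difference of −6.87 (SE 0.58, limma adjusted p = 5.63e-08) and was lower in lineage-negative than in whole marrow by −6.43 (SE 0.66, limma adjusted p = 2.45e-07). With TMM the 2 values were −7.54 and −7.11. The lineage-negative mean of 17.96 became 9.42 without replicate 1. The summed level of 10 erythroid genes was 806 to 1988 k in whole marrow, 0.397 to 32.1 k in AML and 9.32 to 55.8 k in lineage-negative marrow, and its part in the level of Slfn14 was not tested.

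Slfn10-ps, a transcribed pseudogene beside Slfn8, was highest in lineage-negative marrow, at 234 ± 90.8 (SD, n = 4), against 110 ± 35.8 (SD, n = 7) in AML and 45.0 ± 2.65 (SD, n = 4) in whole marrow. Its group means were in the same order as those of Slfn9. It was called in all 3 comparisons in the deposited scaling, with a log2 difference of 2.28 for lineage-negative against whole marrow (1.59 with TMM), 1.21 for AML against whole marrow (0.53 and no call with TMM) and −1.07 for AML against lineage-negative marrow, the last falling under a size of 1 without AML replicate 1 (−0.96) or without lineage-negative replicate 1 (−0.84). Slfn5os, an antisense RNA that overlaps Slfn5, had a mean of 13.2 normalized counts in AML beside 6310 for Slfn5, and means of 4.11 in whole and 0.502 in lineage-negative marrow, where all libraries but whole marrow replicate 1 (14.6) were under the floor. AML replicate 6 was also under its floor of 3.70, at 2.47e-11, while the other AML libraries held 7.76 to 22.2. Slfn5os was called higher in AML than in lineage-negative marrow (log2 difference 3.00, SE 0.82, limma adjusted p = 0.00531) and than in whole marrow (2.03, SE 0.82, limma adjusted p = 0.0373). The second call was lost with TMM (1.56), with a pseudocount of 0.1 (limma adjusted p = 0.0777), and without AML replicate 1, 2, 3, 5 or 7 or whole marrow replicate 2, 3 or 4 (limma adjusted p of 0.0546 to 0.148). Slfnl1, a related gene on chromosome 4, had means of 1.93 in AML, 0.449 in whole and 3.88 in lineage-negative marrow and was removed by the filter on low values.

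The protein-coding neighbours named here outside the cluster had smaller differences between AML and whole marrow than Slfn5 and Slfn8. Before the cluster, Nle1 rose in AML against whole marrow by 1.34 (0.65 and no call with TMM), and it fell against lineage-negative marrow, at −1.67, while Rad51d had 0.89 (0.19 with TMM) and −0.32. After the cluster, Ap2b1 had 0.96 (0.26 with TMM) and −0.07. Fndc8 and Rasl10b did not pass the filter on low values.

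**Figure D5:**
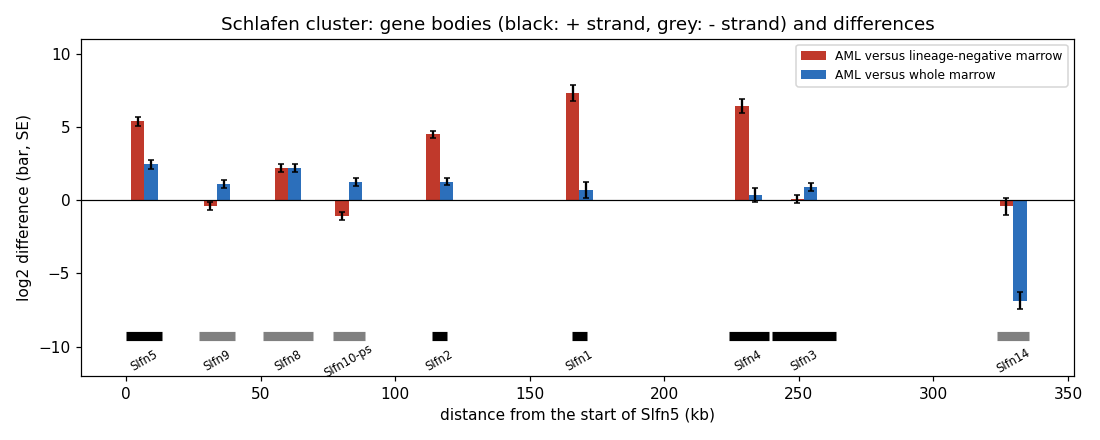
Log2 differences (bars, with SE) of AML against lineage-negative and against whole marrow, placed along the Schlafen cluster by distance from the start of Slfn5 in kb; the strips below are gene bodies, black on the plus and grey on the minus strand. The tall bars against lineage-negative marrow belong to Slfn1 (7.30), Slfn4 (6.42), Slfn5 (5.36) and Slfn2 (4.48), while Slfn9 and Slfn3, beside Slfn8 and Slfn4, are near 0, and Slfn14 has the long bar below 0 against whole marrow (−6.87).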

How the data were processed

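Bulk RNA-seq levels of 38315 genes in 15 mouse marrow samples were used. RNA was extracted with TRIzol and libraries were made with a stranded total RNA kit, per the labels' protocols. The values have the unit signal: in the deposited table the authors gave normalized counts, estimated reads divided by a size factor of the poscounts type, per the name of the table. STAR, Partek, DESeq2 and the build mm10 are named, without roles or versions, per the submitters' processing notes. Of 38066 gene identifiers shared with a GRCm38 annotation, 861 have the same start, so the table's own coordinates are given, each end being worked out as the start plus the length less 1. The strand used for counting is not given in the sources used here, so reads of overlapping antisense genes cannot be told apart.

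Groups and replicate numbers came from the sample titles. Between 81.9% and 87.2% of low values were whole multiples of 1 read's step (tolerance 0.02 of a step), so whole reads were not recovered and count models were not run. Depth was the total divided by this step, and floors cover counting error only. Genes with at least 10 normalized counts in at least 4 samples were kept (18941, with 19374 removed; all 7 members passed). The log2 values with a pseudocount of 1, which understates changes of low genes, entered 1 limma fit of 3 groups (limma 3.58.1, R 4.3.3, mean-variance trend, two-sided), tested on simulated data. Levels per kb used exonic lengths of the GRCm38 annotation. Promoters were aligned with Biopython 1.88 and shared words counted over annotated transcripts.

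All members, the other Schlafen genes, 3 neighbours on each side of the cluster, the 3 nearest profiles of each member and at most 4 called genes per list were named. Some results under this rule are not reported here. The members and lists were chosen with earlier results of these data known. Alternatives were pseudocounts of 0.1 and 5, all genes, a minimum mean of 50, quantile or TMM scaling, pairs of groups alone, a replicate block, subtraction of a background from olfactory and vomeronasal receptor genes, AML replicates 5 and 6 left out, and each library left out in turn. The relations over AML libraries and their alternatives (the same pseudocounts, median-of-ratios scaling within AML, each AML library left out) were chosen after seeing the data.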

Additional observations from a re-analysis of the deposited data

Results flagged for a closer look

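Slfn9 in whole marrow was 326 normalized counts in replicate 1, against 513 to 539.6 in the other replicates. The gap was 0.875 of the range of the group, past the limit of 0.829 for 4 samples. Slfn9 in lineage-negative marrow was 1080.0 in replicate 3, against 1435 to 1461 in the other replicates, a gap of 0.930 of the range. Chance flags about 1 group in 20, and 21 groups of the members were looked at.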

How the results depend on the processing

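The number of members called in AML against whole marrow was 4, and 2 with TMM and with quantile scaling. Slfn2 then had a log2 difference of 0.55 and 0.47 and Slfn9 of 0.38 and 0.30. Slfn9 also lost its call with the replicate block (0.80) and without AML replicates 5 and 6 (0.92), and its call in lineage-negative against whole marrow with TMM (0.81) and quantile scaling (0.81). Leaving out each library in turn gave 3 to 5 members called against whole marrow. Signs that turned belonged to differences that were not called: against whole marrow Slfn1 was −0.0087 with TMM and −0.074 with quantile scaling, and Slfn4 −0.35 and −0.43. Slfn8 in lineage-negative against whole marrow was −0.68 and −0.73, and −0.13 to 0.13 over the libraries left out. Slfn3 in AML against lineage-negative marrow was −0.037 with the replicate block and −0.034 to 0.217 over the libraries left out, Slfn14 −0.84 to 0.10, and Slfn5os in lineage-negative against whole marrow was 0.30 with quantile scaling. The cause was not tested. Deviations of same-numbered samples from their group means had r of −0.288 to 0.171. Differently numbered samples were not compared, so these values cannot show whether the numbers pair the samples. Of 210 values of the members under the alternatives other than leaving out a library, 195 kept direction and side of the threshold, as did 302 of 315 with a library left out. Both counts include values whose log2 difference could not move. These come from other gene filters, fits of pairs of groups alone, and libraries left out that belong to neither group compared. The counts are therefore no measure of stability. Depth limits Slfn1 in lineage-negative replicate 2, Slfn14 in the lowest AML libraries and Slfn5os in most controls and AML replicate 6, which lie near or under the floor of 3 reads.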
